A study of Mus musculus with 8 samples.

Results

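Heparanase (Hpse) and 9 genes that build, carry or edit heparan sulfate were followed through RNA sequencing of muscle stem cells, which lie along the fibres of skeletal muscle and repair them. Hpse was chosen because its measured level was lower in RhoA het than in control cells. The others, the syndecans Sdc1, Sdc2, Sdc3 and Sdc4, the glypican Gpc1, the sulfatases Sulf1 and Sulf2, and the synthetic enzymes Ext1 and Ndst1, were chosen by function. These 10 genes were found by symbol among 57180 annotated genes, and all 10 passed the filter on low counts that left 15660 genes for testing.

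The cells were purified by flow cytometry and were not cultured. The 4 control samples (replicates 2, 5, 7 and 8) are titled WT. The other 4 samples (replicates 5, 6, 7 and 8) are titled RhoA het, carry the genotype label RhoA knockdown, and are described in the series design as SC-RhoAfl/+, with 1 floxed allele of the small GTPase gene RhoA in the stem cells. The promoter that drives the Cre, the age of the mice and the number of mice behind each sample are not given in the sources used here. No label says whether each sample came from a separate animal, so p-values measure the spread between these samples, part of which may be technical. Values of single libraries are listed below as control 2, 5, 7 and 8 and RhoA het 5, 6, 7 and 8.

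Heparan sulfate is a long sulfated sugar chain attached to a few core proteins at the cell surface and in the matrix. Syndecans span the membrane and glypicans are tethered to it by a lipid anchor. The chains bind growth factors such as FGFs and HGF, and the pattern of sulfate groups sets which of them are held. In muscle, Sdc3 and Sdc4 are used as surface markers of the stem cells, and the chains are known to take part in how these cells respond to FGF and HGF.

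Each library held 19138763 to 25606342 assigned fragments. The targeted gene Rhoa lay between 272.6 and 382.9 CPM among controls (mean 324.6 ± 46.3 SD, n = 4) and between 252.5 and 282.1 CPM among RhoA het libraries (mean 264.8 ± 14.4 SD, n = 4), where CPM is the count scaled to a common library total with TMM factors. These ranges overlapped, and the log2 fold change was -0.29 (SE 0.13, edgeR adjusted p 1.00, exact permutation p 0.0571). The 10 muscle stem cell markers, Pax7 among them, were all expressed, with summed TPM (counts per length, scaled to a common total) of 5248 to 7562 in control and 5181 to 7591 in RhoA het. The 10 fibro-adipogenic markers summed to 3484 to 8074 TPM, with 2551 to 6076 TPM of Gsn, 395 to 2485 TPM of Col3a1, 164 to 1717 TPM of Col1a1, 176 to 1141 TPM of Dcn and at most 4.17 TPM of Pdgfra. The 10 endothelial markers summed to 435 TPM in RhoA het replicate 6 and at most to 119 TPM in any other library. The 8 cell cycle markers summed to 223 and 156 TPM in control and RhoA het replicate 5, and at most to 77.9 TPM elsewhere. Y chromosome genes drew 15179 fragments in control 2, 15137 in RhoA het 6 and at most 677 elsewhere, and Xist drew 5, 7 and at least 3539, so each group held samples from animals of both sexes.

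Upstream sequences are shown for the gene that defines the set and for its most abundant member. Both are the 250 bases before the RefSeq start site on GRCm38.p6, 5′ to 3′ on the gene's own strand, and capitals mark the GC box, GGGCGG on either strand. The Hpse window is chr5:100719717-100719966 and the Sdc4 window is chr2:164443189-164443438, both on the minus strand.
Hpse: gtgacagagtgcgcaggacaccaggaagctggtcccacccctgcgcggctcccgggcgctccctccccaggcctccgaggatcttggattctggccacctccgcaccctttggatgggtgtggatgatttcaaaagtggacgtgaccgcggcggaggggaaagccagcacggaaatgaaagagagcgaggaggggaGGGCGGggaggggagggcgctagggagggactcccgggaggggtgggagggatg
Sdc4: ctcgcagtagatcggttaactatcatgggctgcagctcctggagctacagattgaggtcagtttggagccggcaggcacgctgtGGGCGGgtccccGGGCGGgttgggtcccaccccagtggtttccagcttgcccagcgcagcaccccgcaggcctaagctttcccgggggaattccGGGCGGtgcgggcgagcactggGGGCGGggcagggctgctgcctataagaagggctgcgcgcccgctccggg
The Hpse window held 1 GC box and the Sdc4 window 4. This motif is found in 32.7% of the 32851 windows of the same length in the RefSeq table. Neither window held an E-box (CANNTG, 66.2% of windows), the TEAD core (GGAATG, 12.6%), the AP-1 site (TGANTCA, 6.75%) or the CArG box that SRF binds (1.47%), searched on both strands. The matches shown did not overlap one another, and none of them is evidence of binding. The table held start sites for 5 of the 10 genes.

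Per length, Sdc4 stood above every other member in every library. Sdc4 (ENSMUSG00000017009.4; mm39 chromosome 2, 164266167 to 164285807, minus strand), a transmembrane syndecan, had TPM between 4961 and 9376 with a median of 6027. It ranked between the 4th and the 13th most abundant gene per length in each library and took 0.384% to 0.783% of all fragments. Among the 4 syndecans it made up 93.9% to 97.9% of summed TPM.

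Sdc2 followed with a mean of 168 TPM and Sdc1 with 85.7 TPM, each above the next gene in 8 of 8 libraries. Sdc3, the other syndecan used to mark these cells, had a mean of only 12.8 TPM, and Sdc2 was 10.1 to 21.5 times higher in TPM. The extracellular sulfatase Sulf1, which trims 6-O-sulfate groups from finished chains, averaged 53.4 TPM and stood above Gpc1 in every library. Its relative Sulf2 had the lowest mean over all 8 libraries at 4.99 TPM.

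**Figure D1:**
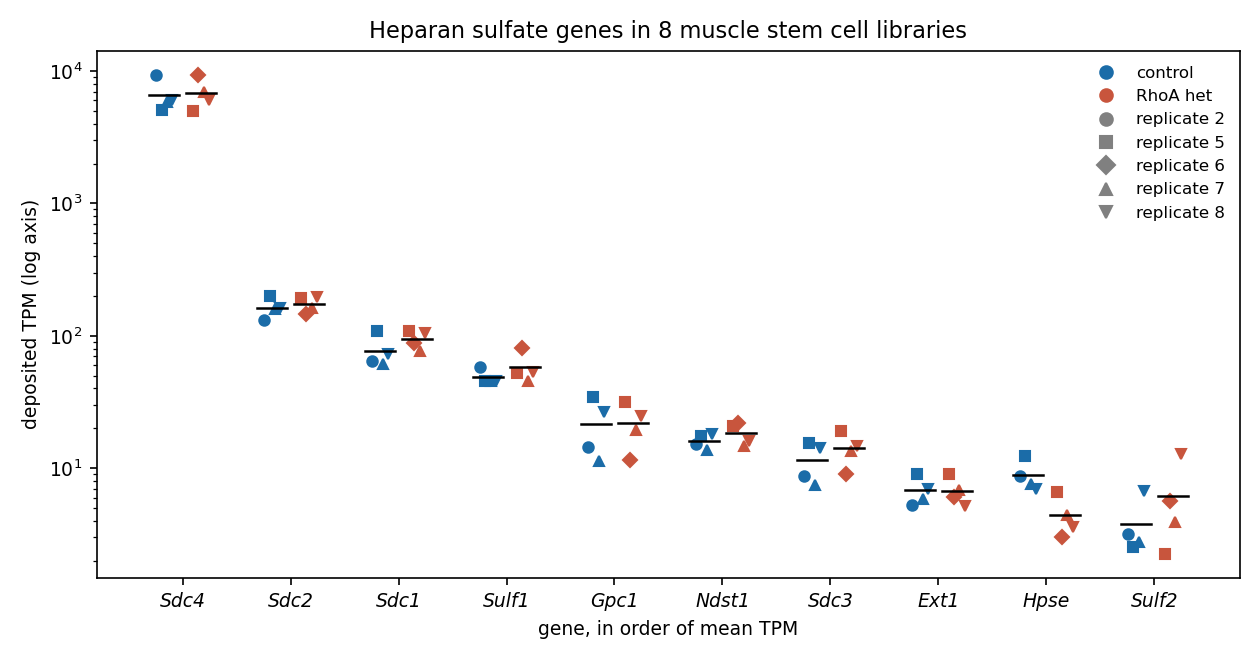
Deposited TPM (log axis) of the 10 genes in each library, in order of mean TPM, with control in blue and RhoA het in red, a marker shape for each replicate number and a black line at each group mean. Sdc4 lies between 4961 and 9376 TPM in every library, while Hpse lies between 3.03 and 12.3 TPM.

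Neighbours in this order were not always separable. Gpc1 at 21.8 TPM exceeded Ndst1 at 17.3 TPM in 5 of 8 libraries, Ext1 at 6.79 TPM exceeded Hpse at 6.66 TPM in 5 of 8, and Hpse exceeded Sulf2 in 6 of 8. The remaining neighbours kept their order in 8 of 8 libraries. In control libraries alone Hpse, at 8.90 TPM, ranked above Ext1, at 6.81 TPM. In RhoA het libraries alone Hpse, at 4.41 TPM, was the lowest and Sulf2 had 6.17 TPM.

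Hpse (ENSMUSG00000035273.15; mm39 chromosome 5, 100827350 to 100867582, minus strand, 3516 exonic bases) encodes the enzyme that cuts heparan sulfate chains within their length. The 4 controls held 223, 261, 215 and 171 Hpse fragments, or 11.8, 12.1, 8.06 and 8.03 CPM. The 4 RhoA het libraries held 142, 73, 104 and 74 fragments, or 6.67, 3.47, 4.66 and 3.80 CPM. Every RhoA het library lay below every control library. No other annotated gene overlaps Hpse.

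Mean Hpse was 9.998 ± 2.26 CPM among controls and 4.65 ± 1.43 CPM among RhoA het libraries (SD, n = 4 each), which is 53.5% lower. In TPM the same means were 8.90 ± 2.39 and 4.41 ± 1.56. On the log2 scale the RhoA het level minus the control level was -1.10 (SE 0.26, 95% interval -1.69 to -0.51). These values chose the gene and are a description without a test. In bulk RNA, fewer cells that express a gene and less RNA per cell cannot be told apart.

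Within the 3 replicate numbers that occur in both groups, Hpse was lower in RhoA het each time. The log2 differences were -0.85, -0.78 and -1.06, so the pairs were alike in size although the libraries numbered 5 were the highest of both groups. Of all genes tested, 26.2% moved the same way in all 3 pairs and 12.5% were lower in RhoA het in all 3. Every RhoA het library lay below every control for 0.792% of genes and above for 1.02%. Hpse was chosen on this contrast, so its place among these genes is no result. A fit over the 3 pairs with the replicate number as a block gave -0.93 (SE 0.21).

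Hpse had its lowest value in RhoA het replicate 6, the library with the most endothelial marker RNA, and without that library the log2 fold change was -0.99. All 10 endothelial markers had higher estimates in RhoA het, with summed TPM of 41.9 to 119 in control and 80.7 to 435 in RhoA het. RhoA het 5, 7 and 8 held 87.7, 80.7 and 106 TPM, within the control range. No endothelial marker was at 0 in all libraries, and RhoA het 6 was also highest for the immune markers S100a8, Cd74 and Csf1r, at 228.7, 92.97 and 2.61 TPM against at most 51.7, 27.4 and 0.424 TPM elsewhere. The immune marker Lyz2 was lowest in RhoA het 6, at 209.1 TPM against 217 to 817 TPM elsewhere. Cd68 and Cd79a were not highest there. The 10 immune markers summed to 335 to 830 TPM in control and 240 to 820 TPM in RhoA het, and the part of such RNA in the Hpse values was not tested. Without both libraries numbered 5, which held the most cell cycle marker RNA, the log2 fold change of Hpse was -1.24. Hpse2, a relative that lacks heparanase activity, had 59 fragments over all 8 libraries and was not tested.

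**Figure D2:**
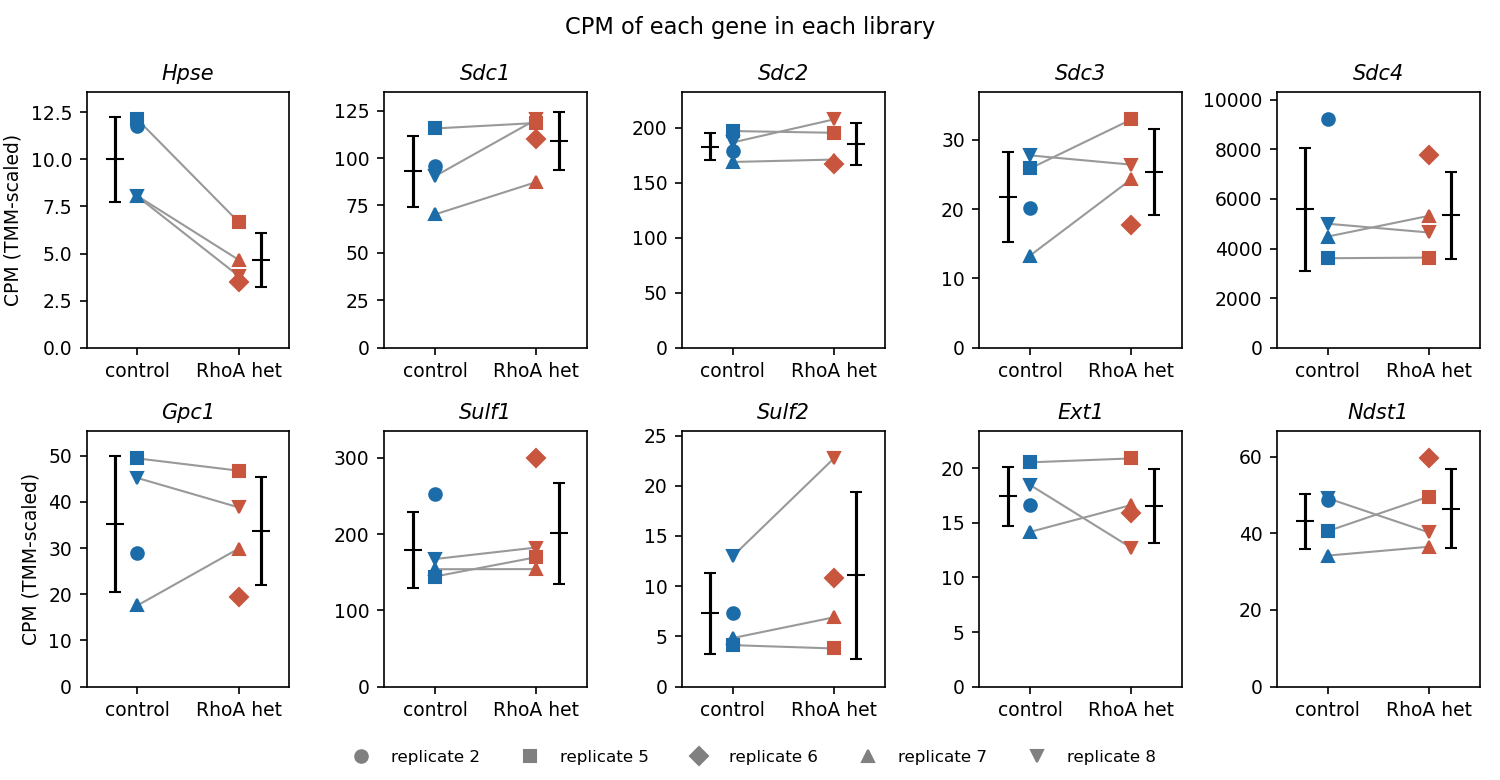
CPM of each gene (linear axes from 0) in control (blue) and RhoA het (red) libraries, with grey lines joining libraries of the same replicate number and black bars for the mean ± SD of 4. The Hpse groups do not overlap, at 8.03 to 12.1 and 3.47 to 6.67 CPM, while the groups of the other 9 genes do.

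For the 9 members other than Hpse, control and RhoA het overlapped in CPM in every case, against 1.81% of all genes tested whose groups did not overlap. In edgeR's quasi-likelihood fit the adjusted p was 1.00 for each of them, and 0% of all genes were called at 0.05. None had an unadjusted p under 0.05 in edgeR either, against 2.38% (372) of all genes, and the DESeq2 and limma-voom fits also called none. The median log2 fold change of these 9 genes was 0.11, with 6 estimates above 0 and 3 below, beside a median of -0.00071 over all genes. With the replicate block over 3 pairs, 8 estimates were above 0 and none was called (lowest edgeR unadjusted p 0.0712, adjusted p 0.931), against 0.0127% of all genes called and 5.26% at an unadjusted p under 0.05.

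Sdc4 varied 2.55-fold between libraries, with high and low libraries in both groups. Its CPM was 9209, 3609, 4482 and 4999 in the 4 controls. It was 3633, 7767, 5319 and 4646 in the 4 RhoA het libraries. Control replicate 2 and RhoA het replicate 6, the libraries with the most Y chromosome fragments, were the highest, and both libraries numbered 5 were the lowest.

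Between genotypes Sdc4 differed by a log2 fold change of -0.062, with an SE of 0.33 and an interval of -0.80 to 0.67 (edgeR adjusted p 1.00, exact permutation p 1). It was 0.29 without control replicate 2 and -0.30 without RhoA het replicate 6, so its sign followed the choice of libraries. In the 6 libraries numbered 5, 7 and 8 it was 0.029. Endothelial markers summed to 41.9 TPM in control replicate 2, the lowest of all libraries, and to 435 TPM in RhoA het replicate 6, the highest. The part of sex, endothelial RNA or cell cycle in the split between high and low Sdc4 libraries was not tested.

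Sulf1 was highest in the same pair of libraries. Its CPM was 253, 144, 154 and 167 in the 4 controls. It was 169.6, 299, 154 and 182 in the 4 RhoA het libraries. The groups overlapped, with a log2 fold change of 0.16 (SE 0.25, 95% interval -0.39 to 0.72, edgeR adjusted p 1.00), and without RhoA het replicate 6 it was -0.092.

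Sulf2 varied most among the members, with 5.97-fold between its highest and lowest CPM, a ratio above that of 96.5% of genes averaging at least 5 CPM. Its CPM was 7.29, 4.13, 4.83 and 12.96 in the 4 controls. It was 3.80, 10.8, 6.90 and 22.7 in the 4 RhoA het libraries. Both libraries numbered 8 were the highest of their group and both numbered 5 the lowest.

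The log2 fold change of Sulf2 was 0.60 with an interval of -0.61 to 1.81 (edgeR adjusted p 1.00, exact permutation p 0.571), and without RhoA het replicate 8 it was -0.026. The 6 Schwann cell markers summed to 268 and 332 TPM in the libraries numbered 8, against 145 to 242 TPM elsewhere. The 8 mural markers summed to 2335 TPM in RhoA het replicate 8, against 589 to 1369 TPM elsewhere. All 14 of these markers passed the filter, and their part in the Sulf2 values was not tested. Sulf2 exons overlap those of Ncoa3 on the opposite strand, and with unstranded counting and no multi-overlap option, fragments wholly in shared positions count for neither gene.

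The other 3 syndecans differed in how steady they were. Sdc2 was the steadiest member, at 168.8 to 196.9 CPM among controls and 167.2 to 207.5 CPM among RhoA het libraries, and its 1.24-fold range was wider than that of only 3.03% of genes. Its log2 fold change was 0.019 with an interval of -0.24 to 0.28 (edgeR adjusted p 1.00), and it took either sign as single libraries were left out.

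Sdc1 ranged from 70.3 to 115.6 CPM among controls and from 87.4 to 120.4 CPM among RhoA het libraries. It was higher in RhoA het in 3 of 3 pairs, by 0.036, 0.31 and 0.41 in log2 CPM for numbers 5, 7 and 8, where 13.6% of all genes were higher in all 3. Its log2 fold change of 0.23 (SE 0.17, interval -0.15 to 0.61) was within the spread between replicates (edgeR adjusted p 1.00, exact permutation p 0.286). It was 0.12 without control replicate 7. Sulf1 also had 3 positive differences, 0.23, 0.0014 and 0.12, the second of them close to 0.

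Sdc3 (ENSMUSG00000025743.15; mm39 chromosome 4, 130519848 to 130553630, plus strand) had 20.2, 25.9, 13.3 and 27.8 CPM in the 4 controls. It had 32.96, 17.7, 24.3 and 26.4 CPM in the 4 RhoA het libraries. Control replicate 7 was the lowest and RhoA het replicate 5 the highest, and the groups overlapped. The difference in Sdc3 was 0.22 on the log2 scale, with an SE of 0.26 and an interval of -0.35 to 0.79 (edgeR adjusted p 1.00). Without control replicate 7 it was 0.042. Sdc3 exons overlap those of Gm12970 and Gm26716 on the opposite strand, so its unstranded count is uncertain.

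Gpc1, a glypican that binds FGFs through its chains, had 29.0, 49.4, 17.6 and 45.2 CPM in the 4 controls. It had 46.8, 19.3, 29.9 and 38.8 CPM in the 4 RhoA het libraries. Both libraries numbered 5 were the highest of their group, at the opposite end from their place for Sdc4. Fibro-adipogenic markers summed to 3484 to 8008 TPM in control and 5820 to 8074 TPM in RhoA het. Of these, Col1a1 had 1717 and 1485 TPM in the libraries numbered 5, and at most 534.7 TPM elsewhere. Dcn did not follow it, with 176 and 321 TPM in control and RhoA het replicate 5 and 271 to 1141 TPM elsewhere. The markers of this list therefore did not move together. The part of such RNA in Gpc1 was not tested. The log2 fold change of Gpc1 was -0.066 with an interval of -0.85 to 0.71 (edgeR adjusted p 1.00), and it was 0.12 without RhoA het replicate 6. Gpc1 shares exonic positions with Ankmy1 on the opposite strand.

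The synthetic enzymes Ext1 and Ndst1 varied 1.65-fold and 1.74-fold between libraries, near the median of 1.69-fold over genes averaging at least 5 CPM. Ext1, which with Ext2 forms the polymerase that extends the chain, ranged from 14.2 to 20.5 CPM among controls and from 12.7 to 20.9 CPM among RhoA het libraries, a log2 fold change of -0.077 (SE 0.19). Ndst1, which swaps acetyl for sulfate groups and so opens the way for later sulfation, ranged from 34.2 to 49.1 and from 36.5 to 59.5 CPM, a log2 fold change of 0.11 (SE 0.18). Both had an edgeR adjusted p of 1.00, and Ndst1 was highest in RhoA het replicate 6. Without that library the Ndst1 estimate was -0.036, and without RhoA het replicate 8 the Ext1 estimate was 0.028.

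**Figure D3:**
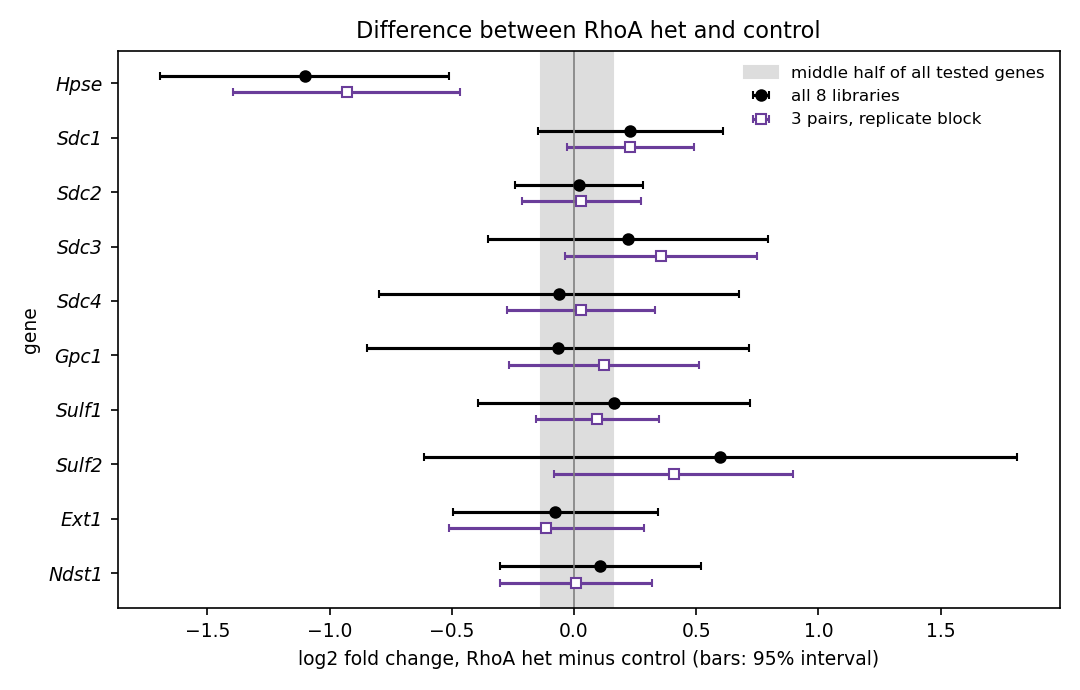
Log2 fold change, RhoA het minus control, with 95% intervals, over all 8 libraries (filled circles) and over 3 pairs with the replicate number as a block (open squares). The grey band is the interquartile range of all genes tested, -0.13 to 0.16. Hpse lies at -1.10 and -0.93, and the intervals of the other 9 genes include 0 in both fits. Hpse was chosen on this contrast, so its intervals are a description without a test.

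The wider pathway was covered by 8 lists holding 70 genes besides the members, of which 62 passed the filter. None was called (edgeR adjusted p under 0.05) and none had an unadjusted p under 0.05 in edgeR, against 2.38% of all genes. Estimates were above 0 for 33 and below 0 for 29, with a median log2 fold change of 0.02 beside -0.00071 over all genes. With the replicate block over 3 pairs, 4 of the 62 had an unadjusted p under 0.05 in edgeR, against 5.26% of all genes, and none was called. These were Ugdh and Met, given below, Hs6st1, and Cxcl12, a chemokine named after its values were seen (log2 fold change 0.68 with the block and -1.19 over all 8 libraries, edgeR adjusted p 0.835 with the block). Cxcl12 had 91.4 ± 130 TPM in control and 48.7 ± 14.6 TPM in RhoA het (SD, n = 4 each). Its highest library, a control, had 286 TPM. No gene of these 62 had groups that did not overlap, against 1.81% of all genes.

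Among 14 core proteins, 12 were tested, with 9 estimates above 0 and a median log2 fold change of 0.11. The most abundant after Sdc4 was Tgfbr3, or betaglycan, a co-receptor for TGF-beta, at 219 ± 56.8 TPM in control and 263 ± 55.7 TPM in RhoA het (SD, n = 4 each). Hspg2, the basement membrane proteoglycan perlecan, had 32.96 ± 14.2 and 41.5 ± 5.55 TPM. Among glypicans, Gpc4 at 110.1 TPM and Gpc3 at 82.4 TPM stood above Gpc1 at 21.8 TPM in mean TPM over all libraries. These 2 glypicans were named after their values were seen. Gpc2 and Gpc5 had 14 and 9 fragments over all libraries and were not tested.

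The linker that joins the chain to its core protein is made by enzymes of which 7 of 7 were tested, with 1 estimate above 0, 6 below and a median of -0.13. Fam20b, the kinase that phosphorylates the linker xylose, was the most abundant of them at 16.9 ± 2.74 TPM in control and 16.2 ± 0.962 TPM in RhoA het. Of the 5 polymerisation genes, 2 estimates were above 0 and 3 below, and the median was -0.043. Ext2 averaged 53.0 TPM, against 6.79 TPM for its partner Ext1.

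Of 16 genes that modify the growing chain, 12 were tested, 9 with estimates above 0, and the median was 0.13. Glce, the epimerase that turns glucuronic into iduronic acid, and Hs6st2, a 6-O-sulfotransferase, were the most abundant at 48.3 and 42.2 TPM. Hs3st1, which adds the sulfate group that antithrombin recognises, had the lowest p of the non-member genes (log2 fold change 1.28, SE 0.61, edgeR unadjusted p 0.0631, adjusted p 1.00). It had 13.4 TPM in RhoA het replicate 6 and 1.04 to 4.44 TPM in the other libraries, and without that library, where endothelial markers were highest, its log2 fold change was 0.38. Hs6st1 had 3.55 ± 0.946 TPM in control and 4.77 ± 0.790 TPM in RhoA het (edgeR adjusted p 1.00, and with the replicate block unadjusted p 0.0283 and adjusted p 0.883).

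Of 5 extracellular editing genes, 4 were tested, and the 3 besides Hpse (Sulf1, Sulf2 and the hydrolase gene Notum) had estimates above 0, with Sulf1 and Sulf2 below 0 when RhoA het replicate 6 or 8, respectively, was left out. The lysosomal enzymes that take the chain apart were tested in 8 of 8 cases, with 5 estimates above 0, 3 below and a median of 0.02. The acetyltransferase Hgsnat, which acts on the chain end during breakdown, led them at 48.9 TPM. Of 9 genes that supply sugar and sulfate donors, 6 estimates were above 0 and the median was 0.04. Ugdh, which makes the UDP-glucuronic acid used in the chain, had a log2 fold change of 0.059 over all 8 libraries and 0.45 over the 3 pairs (edgeR with the replicate block, unadjusted p 0.00536, adjusted p 0.604). The Ugdh estimate was 0.44 in the 6 paired libraries without the block and 0.37 without control replicate 2. It was -0.13 without control replicate 7 and -0.12 without RhoA het replicate 8.

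Of 16 signals and receptors that bind the chains, 15 were tested, with 4 estimates above 0, 11 below and a median of -0.17. The receptors Fgfr4 and Fgfr1 were the most abundant at 289 and 187 TPM, followed by the ligand Hbegf at 114 TPM. Met, the HGF receptor, had 47.6 ± 17.8 TPM in control and 41.3 ± 5.21 TPM in RhoA het (edgeR adjusted p 1.00, and with the replicate block unadjusted p 0.0414 and adjusted p 0.927). Control replicate 5 had 72.4 TPM of Met, and the log2 fold change of -0.25 became -0.077 without that library. Fgf7 had 23.3 TPM in control replicate 2 and 2.30 to 6.68 TPM in the other libraries, and its log2 fold change of -1.22 became 0.64 without that library. Over the 3 pairs with the replicate block, 12 of the 15 estimates were above 0, with a median of 0.23.

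**Figure D4:**
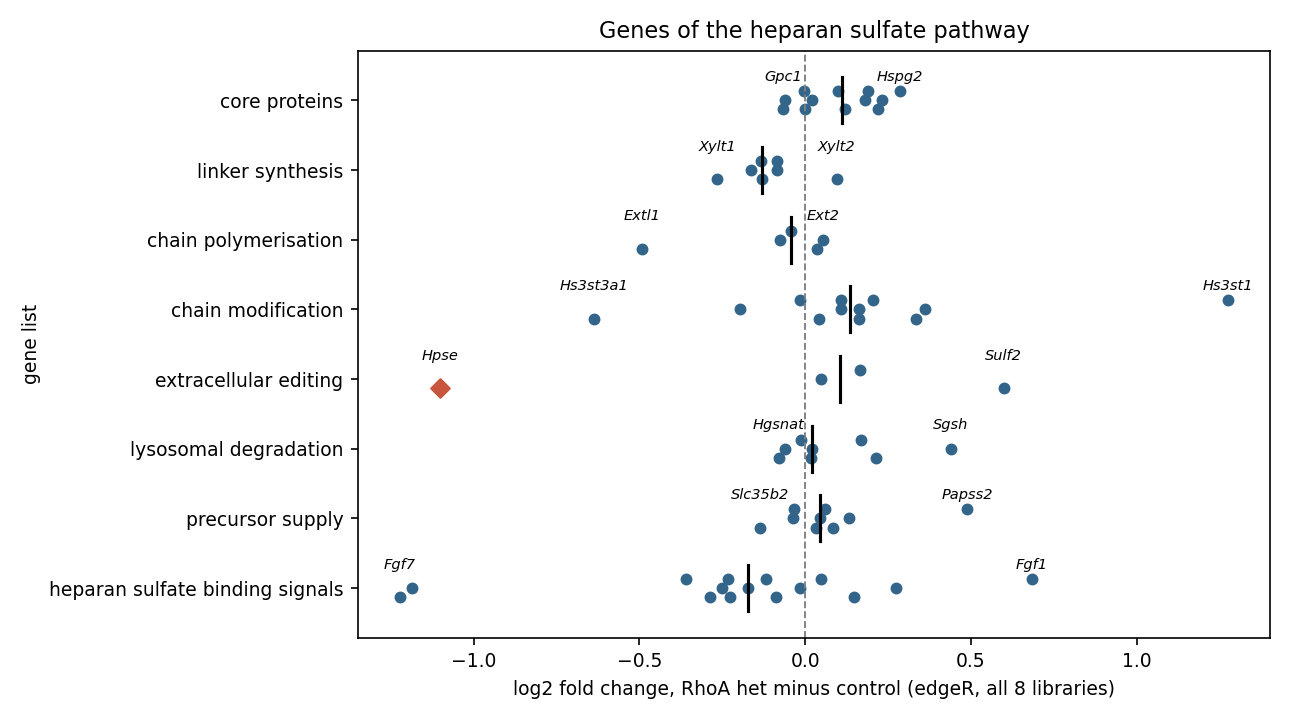
Log2 fold change, RhoA het minus control, of each tested gene in 8 pathway lists (points), with list medians (black lines), the median of all genes (dashed line) and the lowest and highest gene named. Hpse (red diamond) lies at -1.10, and the list medians lie between -0.17 and 0.13.

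Among 9785 other genes averaging at least 5 CPM, those whose log2 CPM followed Hpse most closely over the 8 libraries included Drap1, Txndc16, Osgep and Jtb, with Pearson's r of 0.95, 0.94, 0.93 and 0.93. Drap1, a repressor subunit of general transcription, had 53.1, 48.4, 47.0 and 45.8 CPM in the 4 controls and 40.6, 37.2, 38.4 and 34.5 CPM in the 4 RhoA het libraries. The genes most opposed were Lrig2, Casp4 and Pnpla6, at -0.98, -0.95 and -0.94. Casp4, an inflammatory caspase, ranged from 31.0 to 39.2 CPM among controls and from 51.1 to 71.9 CPM among RhoA het libraries. The points are not independent, since libraries fall in 2 groups and some have the same replicate number, and extremes of a search over this many genes describe these libraries alone.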

How the data were processed

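RNA from 4 control and 4 RhoA het samples was extracted with Trizol and converted to cDNA by template switching, per the labels' protocols. The authors deposited 1 table of counts and 1 table of TPM per gene. Per the file headers, the deposited counts came from featureCounts 1.6.4, run on read pairs over exons of GENCODE mouse release 34 on mm39, from STAR alignments, with no strand, multi-mapping or multi-overlap option. The counting command named 10 alignment files and the table holds 8 libraries. The others, by name control 6 and RhoA het 2, bear the numbers that RhoA het 6 and control 2 lack a partner for, and were not analysed here. FastQC, cutadapt and DESeq2 are also named in the submitters' processing notes. The TPM deposited by the authors equalled counts per length scaled per library, to within a relative difference of 2e-14. Groups and replicate numbers came from the titles. Symbols from GENCODE release M21, matched on identifiers, named 51884 of 57180 genes. The RefSeq upstream sequences are on GRCm38.p6, and their coordinates were not combined with those of the counts.

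Counts were filtered with filterByExpr (41520 genes removed), scaled by TMM and compared with edgeR 4.0.16 (R 4.3.3) over all 8 libraries, with Benjamini-Hochberg adjustment over 15660 genes at a threshold of 0.05. On simulated counts with 200 genes changed 4-fold, this test recovered 70.0%. Smaller changes, such as those estimated for the members, were not simulated. Log2 CPM used a prior count of 2. SEs came from the F statistic. Single values had a two-sided exact permutation test over 70 assignments, which can give no p under 0.0286. The members and lists were chosen with earlier results of these data known, and Hpse has no test.

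Numbers 5, 7 and 8 occur in both groups. The deviations of same-numbered libraries from their group means correlated at 0.544, 0.231 and 0.488 (mean 0.421), against -0.191 for different numbers, so the numbers were taken to pair the libraries and a fit with the replicate block was added over these 3 pairs.

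Named genes were the members, Rhoa, per list the 3 most abundant tested genes and the 2 with the lowest p, and the 5 genes most like and 3 least like Hpse. Alternatives were DESeq2 size factors, total counts, no filter, DESeq2 1.42.0, limma-voom with quality weights, limma 3.58.1 on log2(TPM + 1) and log2(TPM + 0.1), the block, the 6 paired libraries, and leaving out each library. Leaving out both libraries numbered 5 was chosen after seeing the data. Notum, Hpse2, Gpc2, Gpc3, Gpc4, Gpc5, Cxcl12, Acta1, Atp2a1 and the single markers lie outside this rule. Not every gene that it selects is described, and 1 of those most like Hpse is not reported here.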

Additional observations from a re-analysis of the deposited data

Results flagged for a closer look

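No member gene had a library standing apart from its group by Dixon's ratio (the gap to the nearest library over the whole range) at the 95% level. Over 10 members and 8 marker lists in both groups there were 3 such results among 36 tested, where chance gives about 1.8.

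The endothelial markers stood apart in RhoA het replicate 6, with a log2 summed TPM of 8.766 against 6.72 in the next highest RhoA het library. Hpse was lowest and Sulf1, Ndst1 and Hs3st1 were highest in that library. The cell cycle markers stood apart in control replicate 5, with a log2 summed TPM of 7.799 against 5.21 in the next control, and Gpc1, Sdc1, Sdc2, Ext1 and Hpse were highest among the control libraries there. The immune markers stood apart in control replicate 8, with a log2 summed TPM of 9.697 against at most 8.48, and Lyz2 alone gave 817 TPM in that library and 789.95 TPM in RhoA het replicate 8. Of the 10 immune markers, Ptprc, Adgre1, Itgam and Cd3e were below 1 TPM in every library, while S100a8, Cd74 and Csf1r were highest in RhoA het replicate 6, at 228.7, 92.97 and 2.61 TPM. Lyz2 was lowest in that library, at 209.1 TPM.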

How the results depend on the processing

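The log2 fold change of Hpse stayed below 0 in all 18 alternatives, between -1.33 (without RhoA het replicate 5) and -0.89 (limma on log2(TPM + 1)), and moved by less than the replicate SD of 0.37. With the replicate block over 3 pairs it was -0.93 (SE 0.21), and 2 genes were called over the whole table in place of 0, the myofibre genes Acta1 and Atp2a1, both lower and named after their values were seen, with 827 at an unadjusted p under 0.05. The block changed no other call among the members and pathway genes. In the other alternatives 0 genes were called (0 to 0 without single libraries). The count at an unadjusted p under 0.05 ranged from 278 to 912, against 372 in the fit reported, with 912 for no filter on low counts, 703 without control replicate 5 and 582 without both libraries numbered 5. Estimates were above 0 for 263 of the 372 and for 293 of 342 with total counts, but for 330 of 703 without control replicate 5 and 267 of 582 without both libraries numbered 5.

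None of the other 9 members was called in any of 162 alternative estimates, of which 23, over 7 genes, changed sign. Sdc1 and Sdc3 kept theirs, at 0.12 to 0.34 and 0.042 to 0.36 as single libraries were left out. Sdc4 was 0.015 with total counts without TMM, 0.058 in limma on both log2(TPM + 1) and log2(TPM + 0.1), 0.027 with the replicate block and 0.029 in the 6 paired libraries without it. Gpc1 was 0.049 and 0.052 in those limma fits, 0.12 with the replicate block and 0.021 in the 6 paired libraries. Ndst1 was -0.037 in limma-voom with quality weights. Leaving out single libraries gave ranges of -0.041 to 0.064 for Sdc2, -0.30 to 0.29 for Sdc4, -0.29 to 0.13 for Gpc1, -0.092 to 0.37 for Sulf1, -0.026 to 1.03 for Sulf2, -0.21 to 0.028 for Ext1 and -0.036 to 0.20 for Ndst1. The causes were not tested. The order by TPM exchanged 2 neighbours in control libraries alone and without any single RhoA het library. With 73 to 261 fragments for Hpse and 81 to 442 for Sulf2, counting error is largest for these genes.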
